A study of Mus musculus with 6 samples.

Results

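Both kinds of cancer stem cells that were sorted from the same mouse mammary tumors, namely CD29hi CD61+ cells and ALDH+ cells, were compared with each other gene by gene. The comparison held the genes with a symbol and at least 1 RPKM in 2 or more of the 4 stem cell libraries, which were 12029 of the 14897 genes in the table. RNA had been sequenced from tumors that arise spontaneously in FVBN mice carrying the polyoma virus middle T antigen under the MMTV promoter, which is active mainly in mammary epithelium. From each of 2 tumors, fluorescence-activated sorting gave CD29hi CD61+ cells (P1), ALDH+ cells (P2) and the remaining cells (P0, bulk cells), so that there was 1 library of each population per tumor. All 6 libraries therefore carry the same oncogene and strain, and neither tumor-free tissue nor untransformed cells are among them. Whether the tumors arose in 1 mouse, at what age, and whether cells inside both gates were set aside is not stated in the labels, which also name no removal of blood, vessel or stromal cells before the sort. The tumor pairs the libraries, and p-values measure the spread between these samples only. Bulk cells are given as reference levels and entered no test.

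CD29 is the integrin beta 1 chain and CD61 the integrin beta 3 chain, and a high level of the former marks the basal layer and the stem cell fraction of the mouse mammary gland. The ALDH gate instead reads enzyme activity: cells that oxidize a fluorescent aldehyde keep the dye, and Aldh1a3 is among the enzymes able to do so. The mammary duct has an outer basal layer of contractile cells on the basement membrane, marked by the keratins Krt5 and Krt14, and an inner luminal layer marked by Krt8 and Krt18, part of which becomes milk-secreting alveolar cells. Middle T tumors are mostly luminal in character.

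The libraries held 19037070 to 48008802 reads, and pairs of values below are for tumor 1 and tumor 2 in that order. RPKM are reads scaled by gene length and by library size. The ALDH+ library of tumor 1 stood apart, with no reads for 1612 of the 12029 tested genes against 414 in the CD29hi CD61+ library of that tumor, and 29 and 93 in the CD29hi CD61+ and ALDH+ libraries of tumor 2. In tumor 1, 2740 genes were at least 2-fold higher in CD29hi CD61+ cells and 1235 in ALDH+ cells, where tumor 2 had 295 and 339. Results that rest on genes without reads in that library are given with that fact, and its part in them was not tested. As these are bulk samples, fewer cells of a type and less RNA per cell cannot be told apart.

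Of all tested genes 3 passed the test, 1 known from the basal layer of the mammary duct and 2 from milk secretion. Krt5, the basal keratin, was at 128 and 48.8 RPKM in CD29hi CD61+ cells and at 4.67 and 3.52 RPKM in ALDH+ cells, beside 3.23 and 8.87 RPKM in bulk cells. Both CD29hi CD61+ libraries stood far above the other 4, and the lead within a tumor was 27.4-fold and 13.9-fold. On log2(RPKM + 1), the scale of every log2 fold change below, the mean difference over both tumors was 3.98 ± 0.38 (SE, n = 2 tumors), with an adjusted p of 0.0376 (limma with the tumor as a block, 2-sided, Benjamini-Hochberg). This was the only gene called higher in CD29hi CD61+ cells, 0.00831% of those tested.

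Csn2, the gene of the milk protein beta-casein, was the first of both genes called higher in ALDH+ cells, which made up 0.0166% of those tested. It was at 823 and 191 RPKM in ALDH+ cells and at 79.3 and 7.66 RPKM in CD29hi CD61+ cells, with 137 and 59 RPKM in bulk cells. ALDH+ cells were highest and CD29hi CD61+ cells lowest in each tumor, 10.4-fold and 24.9-fold apart, with bulk cells between them (log2 fold change -3.91 ± 0.29, adjusted p = 0.0161). Csn1s1, which encodes alpha-S1-casein, was at 518 and 117 RPKM in ALDH+ cells, at 53.9 and 20.9 in CD29hi CD61+ cells and at 66.7 and 68.9 in bulk cells. It had the same order in both tumors, with ALDH+ cells 9.61-fold and 5.61-fold above CD29hi CD61+ cells (-2.84 ± 0.26, adjusted p = 0.0348). These 3 calls rest on pairing by tumor. Without the block the adjusted p was 0.584 for Krt5 and 0.999 for both caseins, and with the block and all 6 libraries in the fit it was 0.246, 0.068 and 0.32 for Krt5, Csn2 and Csn1s1. The calls were also lost with a pseudocount of 0.1 RPKM (0.47 for each) and with library medians set equal (0.33, 0.156 and 0.33). With the block they were kept under voom, a fit to recovered reads, and with a minimum of 1 RPKM in all 4 libraries. The order of the populations was kept in each of these. Fits with a library left out also had no block, so they do not separate the part of that library from that of the pairing. Over these fits the log2 fold change was 3.30 to 4.67 for Krt5, -5.52 to -2.31 for Csn2 and -3.90 to -1.77 for Csn1s1. An exact test of 2 pairs cannot go below a 2-sided p of 0.5.

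**Figure D1:**
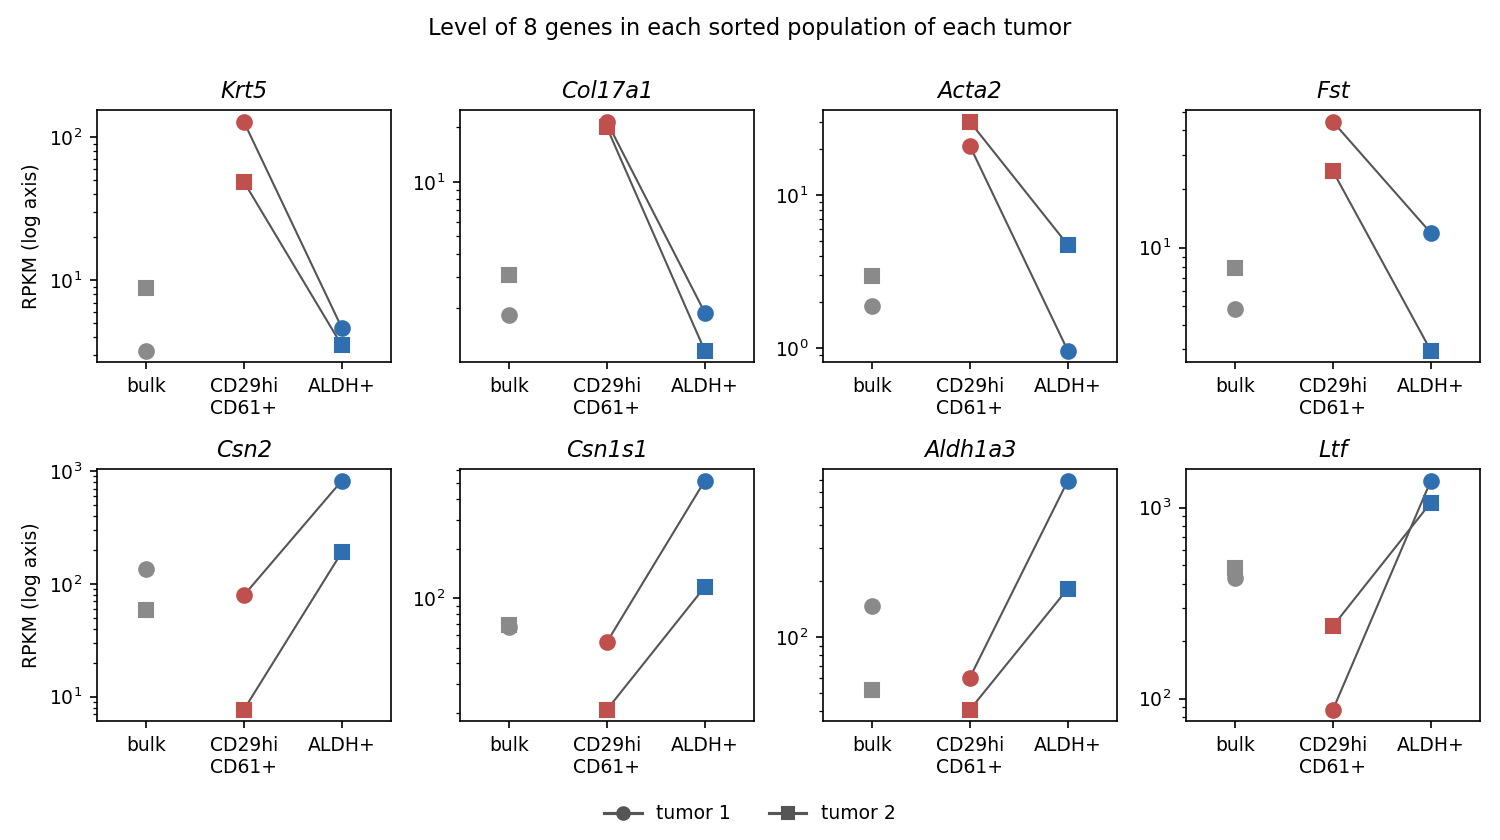
RPKM on a log axis for 8 genes in bulk, CD29hi CD61+ and ALDH+ cells, with tumor 1 as circles, tumor 2 as squares and a line joining both stem cell populations of a tumor. The upper 4 genes are higher in CD29hi CD61+ cells in both tumors and the lower 4 higher in ALDH+ cells, where Csn2 spans 7.66 to 823 RPKM.

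At an unadjusted p under 0.05, 366 genes (3.04% of those tested) were higher in CD29hi CD61+ cells and 330 (2.74%) in ALDH+ cells. These counts depend on the pairing by tumor, and without the block they were 138 and 177. Fits with a library left out also had no block, so how far the counts rest on single libraries cannot be told from them. At least 2-fold apart in the same direction in both tumors were 165 genes higher in CD29hi CD61+ cells (1.37%) and 122 higher in ALDH+ cells (1.01%), and 6425 genes had the same direction in both tumors. Both libraries of a population lay above both of the other for 18.4% of tested genes on the CD29hi CD61+ side and for 12.4% on the ALDH+ side, so a lack of overlap was common and is given below as a description only. The first group leaned on genes without reads: 121 of the 165 had none in ALDH+ cells of tumor 1, 48 had none in tumor 2 and 43 had none in either. A gene that passed the minimum in both libraries of one population and had no reads in the other is 2-fold apart by construction. Of the 122 genes higher in ALDH+ cells, 31 lacked reads in CD29hi CD61+ cells of tumor 1 and 3 in tumor 2. With at least 1 RPKM in all 4 libraries, 19 genes remained higher in CD29hi CD61+ cells, among them Krt5, Col17a1, Fst, Postn, Col7a1, Lama3, Col9a3 and Hp, and 67 in ALDH+ cells. Bulk cells lay between the populations in both tumors for 23 of the 165 genes and for 36 of the 122.

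**Figure D2:**
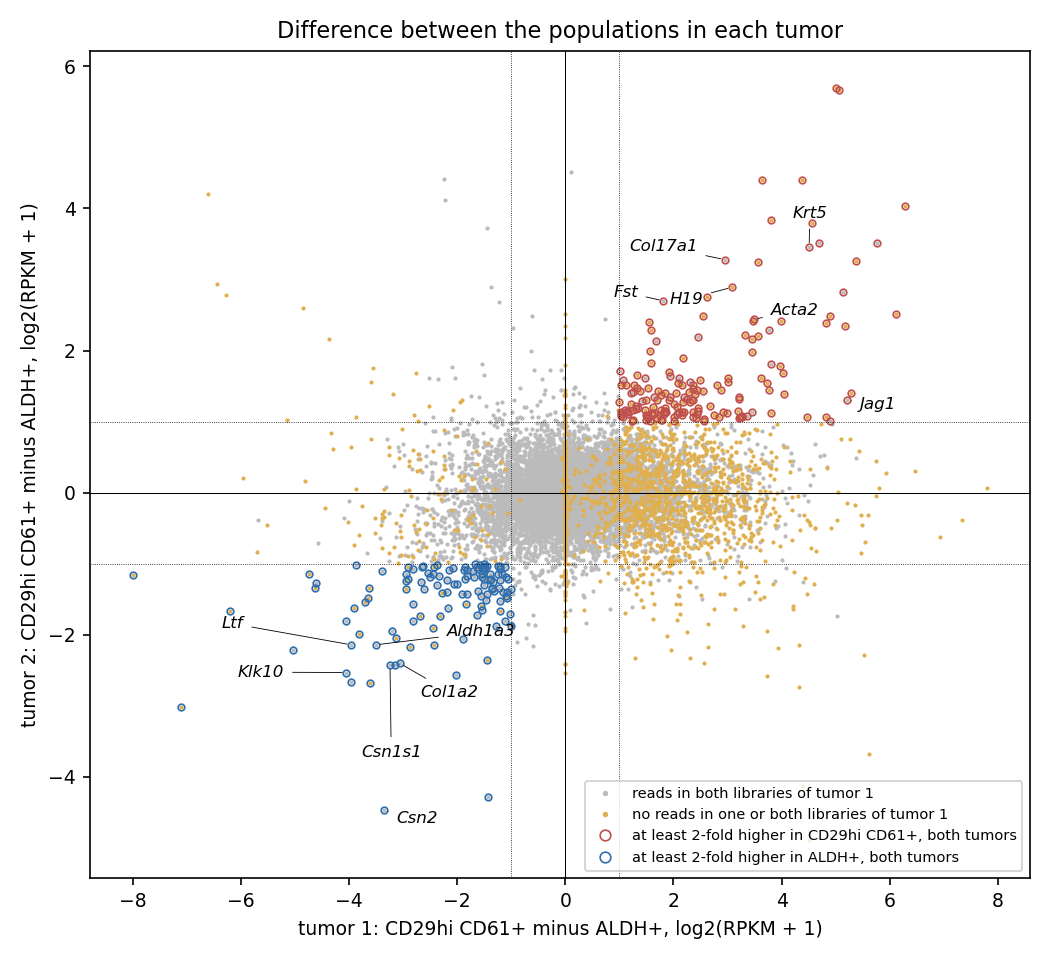
Difference between CD29hi CD61+ and ALDH+ cells in tumor 1 (horizontal) and tumor 2 (vertical) on log2(RPKM + 1) for the 12029 tested genes, with dotted lines at a 2-fold difference. Red rings mark the 165 genes higher in CD29hi CD61+ cells and blue rings the 122 higher in ALDH+ cells in both tumors, and orange points lack reads in a library of tumor 1 and spread mainly to the right.

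Basal genes leaned to CD29hi CD61+ cells. Of 14 tested basal keratins, ligands and transcription factors, 4 were at least 2-fold higher in CD29hi CD61+ cells in both tumors and none in ALDH+ cells. Over all tested genes the shares were 1.37% and 1.01%. The 4 were Krt5, Krt6a and the Notch ligands Jag1 and Jag2, which are described with their pathway. At an unadjusted p under 0.05, 5 of the 14 were higher in CD29hi CD61+ cells, beside 3.04% over all tested genes. The list's median log2 fold change was 0.90, beside 0.11 over all tested genes. Krt17, a keratin of basal and stressed epithelium, was at 279 and 194 RPKM in CD29hi CD61+ cells and at 174 and 90.2 in ALDH+ cells, so that the populations did not overlap (0.89 ± 0.21, adjusted p = 0.565). Krt6a, a keratin of activated epithelium, was at 31.3 and 16.2 RPKM in CD29hi CD61+ cells and at 0.0931 and 7.56 in ALDH+ cells, where the first value is 5 reads (2.95 ± 0.88, adjusted p = 0.74). Krt14, the partner of keratin 5, did not share its pattern. It was at 456 and 675 RPKM in CD29hi CD61+ cells and at 471 and 339 in ALDH+ cells, which overlap (0.47 ± 0.28, adjusted p = 0.824). Trp63, the transcription factor that maintains basal cells, was at 19 and 6.57 RPKM in CD29hi CD61+ cells and at 14.8 and 1.99 in ALDH+ cells, with tumor 1 above tumor 2 in both populations (0.84 ± 0.54, adjusted p = 0.825). Within each tumor CD29hi CD61+ cells were higher, with log2 differences of 0.34 and 1.34. Without the ALDH+ library of tumor 2, in a fit without the block, the log2 fold change of Trp63 was -0.36.

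Contractile genes of the myoepithelium were divided. Acta2, an actin of contractile cells, was at 21 and 30.2 RPKM in CD29hi CD61+ cells, at 0.965 and 4.74 in ALDH+ cells and at 1.9 and 2.96 in bulk cells. CD29hi CD61+ cells led by 21.8-fold and 6.37-fold without overlap, yet the adjusted p was 0.282 (2.96 ± 0.54). Myl9, a myosin light chain, was at 3.96 and 6.16 RPKM in CD29hi CD61+ cells and at 0 and 1.94 in ALDH+ cells, at least 34-fold and 3.18-fold apart where a library without reads is set at 3 reads. Such limits cover counting error only. Mylk, the kinase that activates myosin in smooth muscle, was at 2.15 and 3.8 RPKM in CD29hi CD61+ cells and at 0.901 in ALDH+ cells of tumor 2, with 1 read in tumor 1. These were the 3 genes of 13 tested that were 2-fold higher in both tumors, beside 1.37% over all tested genes. The list median was 0.28, and Tpm1, Tpm2, Cald1, Flna and Actn1, which many cell types use, were at similar levels in both populations.

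The apparatus that ties basal cells to the basement membrane held 4 genes at least 2-fold higher in CD29hi CD61+ cells in both tumors. They were 4 of 12 tested, beside 1.37% over all tested genes, and the list median was 0.33. Krt5, already counted in the basal list, is 1 of them, and its filaments are anchored there. Col17a1, the transmembrane collagen of the hemidesmosome, was at 21.5 and 20 RPKM in CD29hi CD61+ cells, at 1.9 and 1.17 in ALDH+ cells and at 1.84 and 3.06 in bulk cells. The 2 CD29hi CD61+ libraries were close to each other and 11.3-fold and 17.2-fold above ALDH+ cells (3.12 ± 0.57, adjusted p = 0.282). Col7a1, the collagen of anchoring fibrils, was at 11.3 and 11.9 RPKM in CD29hi CD61+ cells and at 2.65 and 5.03 in ALDH+ cells (1.43 ± 0.57, adjusted p = 0.822). Lama3, a laminin alpha chain of epithelial basement membrane, was at 11.8 and 7.31 RPKM in CD29hi CD61+ cells and at 3.81 and 2.4 in ALDH+ cells (1.35 ± 0.60, adjusted p = 0.822). The populations did not overlap for either gene. The other members went in different directions: Lamb3 was at 25.3 and 28.4 RPKM in CD29hi CD61+ cells against 42.8 and 17.8 in ALDH+ cells, and Itgb4, a chain of the integrin of the hemidesmosome, at 63.2 and 62.9 against 75.6 and 68.4. Itga6, its partner chain in that integrin and a gene also used to sort mammary stem cells, was higher in both CD29hi CD61+ libraries, at 191 and 254 against 136 and 187 RPKM (0.46 ± 0.20, adjusted p = 0.822).

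Among secreted and membrane-bound signals, the Notch ligands Jag1 and Jag2 and the activin antagonist gene Fst were at least 2-fold higher in CD29hi CD61+ cells in both tumors. Jag1, a ligand that activates Notch receptors on the neighbouring cell, was at 37.2 and 32.9 RPKM in CD29hi CD61+ cells, at 0.0306 and 12.8 in ALDH+ cells and at 5.76 and 9.6 in bulk cells. The lowest value is 4 reads in ALDH+ cells of tumor 1, and both CD29hi CD61+ libraries were above the others (3.25 ± 0.84, adjusted p = 0.603). Jag2, a second such ligand, was at 6.03 and 5.39 RPKM in CD29hi CD61+ cells and at 0 and 1.23 in ALDH+ cells, at least 194-fold and 4.38-fold apart (2.17 ± 0.71, adjusted p = 0.822). Dll1, the other tested ligand of these receptors, was at 6.63 and 3.41 RPKM in CD29hi CD61+ cells and at 8.23 and 3.71 in ALDH+ cells, which overlap. The receptors did not part in this way: Notch1 was at 14.9 and 12.6 RPKM in CD29hi CD61+ cells against 10.7 and 17.6 in ALDH+ cells, and the median of the 15 tested Notch pathway genes was -0.01. Fst, whose product follistatin binds activin and blocks it, was at 44.3 and 24.7 RPKM in CD29hi CD61+ cells, at 11.9 and 2.96 in ALDH+ cells and at 4.87 and 7.87 in bulk cells. CD29hi CD61+ cells were 3.71-fold and 8.37-fold higher (2.26 ± 0.41, adjusted p = 0.282). Inhba, which encodes the activin chain that follistatin binds, was at 29.8 and 14 RPKM in CD29hi CD61+ cells and at 38 and 21.6 in ALDH+ cells. Tgfbi, a matrix protein induced by TGF-beta, was at 10.8 and 20.8 RPKM in CD29hi CD61+ cells and at 0 and 3.75 in ALDH+ cells, at least 229-fold and 5.56-fold apart (2.88 ± 0.67, adjusted p = 0.535). Fst and Tgfbi were the 2 of 25 tested activin and TGF-beta genes past 2-fold in both tumors, and none of 27 tested Wnt genes was. The share of all tested genes past 2-fold on the CD29hi CD61+ side was 1.37%.

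Milk genes leaned to ALDH+ cells. Of 18 tested, 5 were at least 2-fold higher in ALDH+ cells in both tumors, beside 1.01% over all tested genes. At an unadjusted p under 0.05, 8 were higher there, beside 2.74%. None was higher in CD29hi CD61+ cells by either measure, and the median was -0.61. Of the casein genes, 4 lie next to each other on chromosome 5, in the order Csn1s1, Csn2, Csn1s2a and Csn1s2b, with Csn3 farther on. Csn1s2a, an alpha-S2-casein gene, was at 55.6 and 6.09 RPKM in ALDH+ cells and at 7.06 and 1.03 in CD29hi CD61+ cells, 7.88-fold and 5.9-fold apart (-2.31 ± 0.55, adjusted p = 0.562). Its level in CD29hi CD61+ cells of tumor 1 lay above that in ALDH+ cells of tumor 2. Csn1s2b was at 9.98 and 0.594 RPKM in ALDH+ cells and had no reads in either CD29hi CD61+ library, and was below the minimum for the test. Csn3, the kappa-casein gene, was abundant in all, at 4193 and 1731 RPKM in ALDH+ cells and 1771 and 1087 in CD29hi CD61+ cells (-0.96 ± 0.29, adjusted p = 0.755). Lalba, the lactose synthase subunit alpha-lactalbumin, was at 341 and 312 RPKM in ALDH+ cells and 226 and 69.4 in CD29hi CD61+ cells (-1.37 ± 0.35, adjusted p = 0.578). Wap, the whey acidic protein, was at 20.4 and 43.3 RPKM in ALDH+ cells and 12.7 and 23.2 in CD29hi CD61+ cells (-0.76 ± 0.31, adjusted p = 0.822). Stat5a, the prolactin-activated factor of milk gene transcription, was at 10.4 and 9.85 RPKM in ALDH+ cells and 12.5 and 6.04 in CD29hi CD61+ cells, which overlap.

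The promoters of the 2 called casein genes are shown because each holds the letters of the STAT5 binding motif near its start. They run from 250 bases before the gene's start to 50 after it, in RefSeq on GRCm38.p6, at chr5:87665958-87666257 on the plus strand for Csn1s1 and chr5:87699376-87699675 on the minus strand for Csn2, and capitals mark the motif TTCNNNGAA. The match begins at base -100 of Csn1s1 and -93 of Csn2 counted from the start.
Csn1s1: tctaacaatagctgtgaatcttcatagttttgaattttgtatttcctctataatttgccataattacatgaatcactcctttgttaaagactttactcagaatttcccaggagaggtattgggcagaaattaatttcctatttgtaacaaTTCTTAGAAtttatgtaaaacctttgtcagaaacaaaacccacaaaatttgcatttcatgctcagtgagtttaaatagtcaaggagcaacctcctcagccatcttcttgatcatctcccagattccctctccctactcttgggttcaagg
Csn2: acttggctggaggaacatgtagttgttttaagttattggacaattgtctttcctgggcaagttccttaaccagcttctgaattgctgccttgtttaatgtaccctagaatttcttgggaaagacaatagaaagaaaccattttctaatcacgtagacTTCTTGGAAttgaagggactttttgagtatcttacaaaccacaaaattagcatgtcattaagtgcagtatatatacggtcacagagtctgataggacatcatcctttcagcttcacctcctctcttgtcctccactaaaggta
Both strands of every promoter were searched, and 8.3% of 32851 RefSeq promoters of this length hold this motif. Another motif, the CArG box of serum response factor, searched as CCWWWWWWGG with W for A or T, was in 1.63% of them. No exact match to either motif was found in this window of Krt5 or Acta2. Sites that differ from the CArG letters in a single base, such as CCCTATATGG in the Acta2 window, were not counted. A match describes the letters only and is no evidence of binding.

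Other genes of secreted and surface proteins of glandular epithelium went in both directions, and none of those given here passed the test. Ltf, the iron-binding milk protein lactoferrin, was at 1382 and 1063 RPKM in ALDH+ cells, at 87.6 and 240 in CD29hi CD61+ cells and at 426 and 486 in bulk cells. ALDH+ cells led by 15.8-fold and 4.43-fold, with bulk cells between (-3.05 ± 0.39, adjusted p = 0.0876). Lao1, a milk L-amino acid oxidase, was at 15 and 24.5 RPKM in ALDH+ cells and at 4.75 and 7.93 in CD29hi CD61+ cells, 3.15-fold and 3.09-fold apart (-1.49 ± 0.44, adjusted p = 0.723). The mucin genes were looked at after their values were seen. Of 5 tested, Muc4, Muc15, Muc1 and Muc20 were higher in ALDH+ cells in both tumors, and Muc13 was higher in CD29hi CD61+ cells, at 4.46 and 1.37 RPKM against 3.29 and 0.354. Muc4, a membrane mucin, was at 59.9 and 73.3 RPKM in ALDH+ cells and at 13.7 and 29.4 in CD29hi CD61+ cells (-1.67 ± 0.29, adjusted p = 0.272). Muc15, a mucin of the milk fat globule membrane, was at 30.1 and 21.4 against 6 and 9.56 RPKM (-1.62 ± 0.43, adjusted p = 0.626), and Muc1, the luminal membrane mucin, at 92 and 49.4 against 20.4 and 25.7 RPKM (-1.52 ± 0.33, adjusted p = 0.457). Slpi, a secreted protease inhibitor, was at 174 and 168 RPKM in CD29hi CD61+ cells and at 98 and 133 in ALDH+ cells, and the secretoglobin gene Scgb2b27 was at 215 and 129 RPKM against 26.2 and 122, so that both were higher in CD29hi CD61+ cells. Lcn2, an iron-sequestering defense protein and one of the most abundant mRNAs here, was not apart, at 12043 and 8382 RPKM in ALDH+ cells and 10957 and 10275 in CD29hi CD61+ cells.

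Kallikrein-related peptidases, are secreted serine proteases encoded side by side on chromosome 7, a family singled out after its values were seen. All 8 kallikrein genes in the table were tested, and all 8 were lower in CD29hi CD61+ cells in both tumors. All 8 were so at an unadjusted p under 0.05, beside 2.74% over all tested genes. At least 2-fold in both tumors were 6 of them, beside 1.01%, and their median log2 fold change was -2.34. None passed the adjusted threshold. Klk10 was the most abundant, at 864 and 94.9 RPKM in ALDH+ cells, 51.2 and 15.6 in CD29hi CD61+ cells and 172 and 26.8 in bulk cells, 16.9-fold and 6.07-fold apart (-3.29 ± 0.35, adjusted p = 0.0532). Klk6 was at 71.9 and 14.9 RPKM in ALDH+ cells and at 7.28 and 1.97 in CD29hi CD61+ cells, 9.88-fold and 7.57-fold apart (-2.78 ± 0.44, adjusted p = 0.219). Klk14 was at 49.1 and 5.54 RPKM in ALDH+ cells and at 2.21 and 0.0365 in CD29hi CD61+ cells, the last being 1 read (-3.31 ± 0.67, adjusted p = 0.356). Klk8 was at 66.2 and 8.5 RPKM in ALDH+ cells against 1.81 and 4.8 in CD29hi CD61+ cells, so that its lead was small in tumor 2 (-2.65 ± 0.85, adjusted p = 0.822). Klk7 was at 14.6 and 6.5 against 2.46 and 1.43 RPKM, Klk9 at 5.93 and 2.39 against 0.522 and 0.283, Klk11 at 3.97 and 4.89 against 0 and 0.76, and Klk12 at 8 and 1.47 against 0 and 0.448. The absolute levels were higher in tumor 1 than in tumor 2 for each gene in ALDH+ cells except Klk11.

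**Figure D3:**
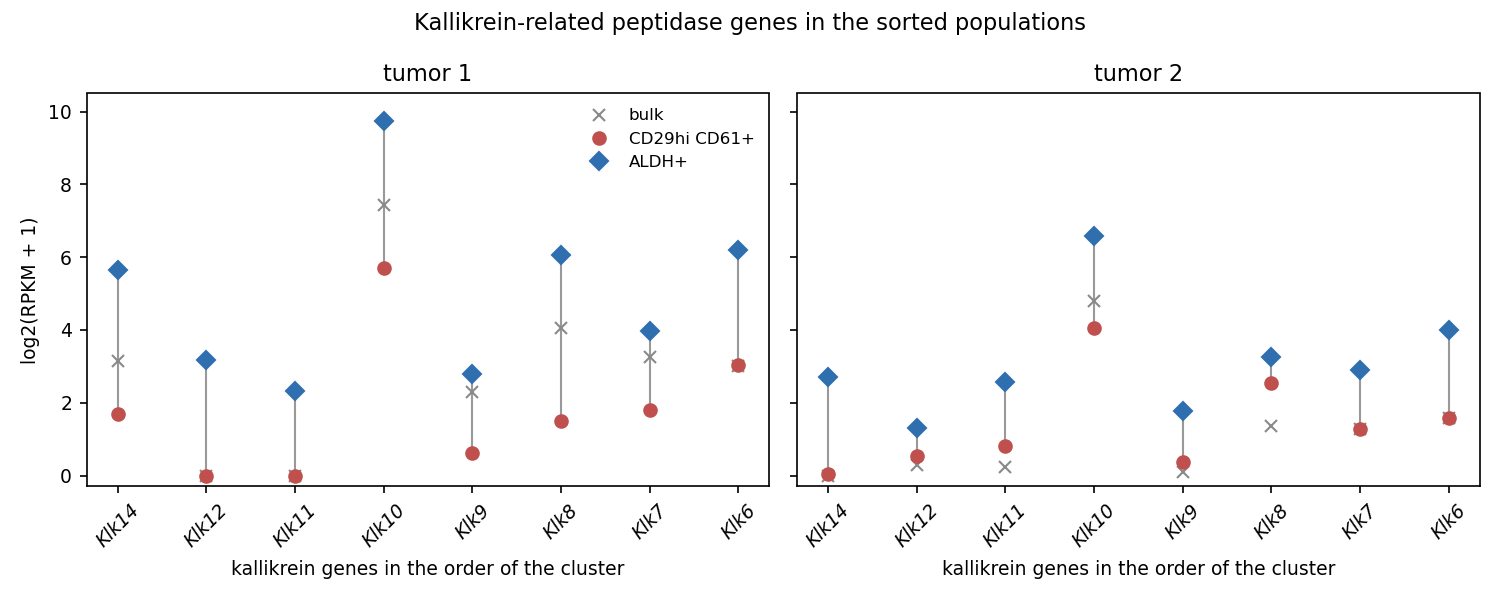
Level of the 8 kallikrein genes as log2(RPKM + 1) in bulk (crosses), CD29hi CD61+ (circles) and ALDH+ cells (diamonds), in the order of the cluster, for tumor 1 and tumor 2. The diamond is above the circle for every gene in both tumors, with the widest gap at Klk8 in tumor 1 and the narrowest at Klk8 in tumor 2 (log2 differences -4.58 and -0.71).

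The genes behind the gates gave a check on the labels. Aldh1a3, the retinaldehyde dehydrogenase linked to the ALDH gate, was at 693 and 182 RPKM in ALDH+ cells, at 60.5 and 40.6 in CD29hi CD61+ cells and at 146 and 51.6 in bulk cells. Its lead was 11.5-fold and 4.48-fold without overlap, and the adjusted p was 0.0557 (-2.82 ± 0.32). No other of the 20 aldehyde dehydrogenase genes in the table showed this pattern: the 13 others tested had log2 fold changes of -0.84 to 0.50, none was 2-fold apart in both tumors, and their adjusted p were 0.846 to 0.974. Aldh1a1, which the same assay can read, was at 0 and 1.37 RPKM in ALDH+ cells and at 0 and 2.53 in CD29hi CD61+ cells. Cyp26b1, the enzyme that degrades retinoic acid, the product of Aldh1a3, was at 1.88 and 5.3 RPKM in CD29hi CD61+ cells and at 0 and 1.26 in ALDH+ cells, at least 78.6-fold and 4.21-fold apart (adjusted p = 0.822). At the mRNA level the integrins of the other gate hardly differed. Itgb1, which encodes CD29, was at 258 and 217 RPKM in CD29hi CD61+ cells and at 221 and 176 in ALDH+ cells (0.26 ± 0.20, adjusted p = 0.842). Itgb3, which encodes CD61, was at 13.2 and 13.9 RPKM in CD29hi CD61+ cells and at 15.8 and 9.42 in ALDH+ cells, which overlap (0.14 ± 0.43, adjusted p = 0.972). Without the ALDH+ library of tumor 2, in a fit without the block, its log2 fold change was -0.21.

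Luminal genes were abundant in both populations. Krt8, the luminal keratin, was at 3062 and 3050 RPKM in CD29hi CD61+ cells and at 5193 and 3201 in ALDH+ cells (-0.42 ± 0.34, adjusted p = 0.855). Epcam, the epithelial adhesion molecule, was at 1957 and 1950 RPKM in CD29hi CD61+ cells and at 2350 and 2027 in ALDH+ cells (-0.16 ± 0.28, adjusted p = 0.932). Krt19, a keratin of luminal cells, was lower in CD29hi CD61+ cells, at 448 and 369 RPKM against 1926 and 584 in ALDH+ cells (-1.38 ± 0.34, adjusted p = 0.565), as was Muc1 of the same list. None of the 23 tested luminal genes was 2-fold apart in both tumors, beside 1.37% and 1.01% over all tested genes, and their median was -0.16. Krt8 exceeded Krt5 by far in CD29hi CD61+ cells too, on RPKM, which are scaled by gene length.

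Most interstitial matrix genes were higher in ALDH+ cells, though not all. Of 23 tested, 8 were at least 2-fold higher in ALDH+ cells in both tumors and 1 in CD29hi CD61+ cells, beside 1.01% and 1.37% over all tested genes. At an unadjusted p under 0.05, 7 were higher in ALDH+ cells and 2 in CD29hi CD61+ cells, beside 2.74% and 3.04%. The list median was -0.61, and 13 genes were higher in ALDH+ cells and 6 in CD29hi CD61+ cells in both tumors. Eln, the elastin gene, was among the 6, at 14.2 and 39.8 RPKM against 4.67 and 24.2. Col1a2, a chain of collagen I, was at 23.4 and 150 RPKM in ALDH+ cells, at 1.92 and 27.7 in CD29hi CD61+ cells and at 0.451 and 1.47 in bulk cells. Within each tumor ALDH+ cells were higher, 12.2-fold and 5.42-fold, but CD29hi CD61+ cells of tumor 2 lay above ALDH+ cells of tumor 1 (-2.73 ± 0.33, adjusted p = 0.0738). Col1a1, the other chain, had the same overlap, at 10.3 and 162 RPKM in ALDH+ cells and 1.78 and 26.8 in CD29hi CD61+ cells (-2.29 ± 0.35, adjusted p = 0.211). Col3a1, which joins collagen I in loose tissue, was at 22.8 and 67.8 against 0.423 and 18.6 RPKM (-2.94 ± 0.57, adjusted p = 0.327). Col6a1 was at 4.89 and 35.7 RPKM in ALDH+ cells against 1.93 and 9.08, and its partner Col6a2 at 8.32 and 29.5 RPKM against 6.96 RPKM in CD29hi CD61+ cells of tumor 2, with 1 read in tumor 1. The proteoglycans Bgn, biglycan, and Dcn, decorin, which bind collagen fibrils, were at 64.6 and 201 and at 12.5 and 21 RPKM in ALDH+ cells, and at 28.5 and 75.9 and at 1.62 and 7.94 RPKM in CD29hi CD61+ cells (Bgn -1.27 ± 0.22, adjusted p = 0.272). Pcolce, which speeds the trimming of collagen precursors, was at 4.37 and 9.14 RPKM in ALDH+ cells and at 0 and 1.29 in CD29hi CD61+ cells, at least 108-fold and 7.06-fold apart (-2.28 ± 0.67, adjusted p = 0.723).

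Fibroblasts make the same collagens, so their markers are set beside these values. The summed level of the 18 fibroblast identity genes in the table, of which Dcn is 1, was 82.6 and 138 RPKM in ALDH+ cells, 68.6 and 106 in CD29hi CD61+ cells and 51.8 and 34.1 in bulk cells. Gsn, which epithelial cells also express, made up 60.8 and 43.8 RPKM of it in ALDH+ cells and 50.7 and 53.5 in CD29hi CD61+ cells. Thy1, a surface protein of fibroblasts and of some stem cells, was at 4.41 and 4.93 RPKM in ALDH+ cells and at 0 and 0.587 in CD29hi CD61+ cells (-2.17 ± 0.67, adjusted p = 0.768). Of the 11 tested genes of this list, 2 were 2-fold higher in ALDH+ cells in both tumors, beside 1.01% over all tested genes. The list median was -0.23. In ALDH+ cells of tumor 1, 13 of the 18 genes had no reads, among them Pdgfrb, Dpt, Lum and Fap, while Pdgfra and Serpinf1, also fibroblast genes, were at 1.44 and 3.41 RPKM. In CD29hi CD61+ cells of that tumor 10 of the 18 had none. In tumor 2 Pdgfrb, Dpt, Lum and Fap were at 2.2, 2.05, 8.83 and 2.25 RPKM in ALDH+ cells and at 0.651, 0.566, 3.17 and 0 in CD29hi CD61+ cells, and Pdgfra and Serpinf1 at 2.67 and 25.7 against 1.33 and 19.3. Pdpn, Clec3b and Cd34 of this list went the other way in tumor 2, as did Gsn. They were at 7.99, 2.1 and 0.862 RPKM in CD29hi CD61+ cells and at 7.48, 0.582 and 0 in ALDH+ cells. In tumor 1 Pdpn and Lum were at 8.89 and 0.562 RPKM in CD29hi CD61+ cells and without reads in ALDH+ cells. The part of fibroblasts in the collagen levels was not tested.

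Genes of cartilage-type matrix had the opposite order. Col2a1, the collagen of cartilage, was at 9.96 and 5.38 RPKM in CD29hi CD61+ cells and at 0 and 0.419 in ALDH+ cells, at least 405-fold and 12.8-fold apart (2.81 ± 0.71, adjusted p = 0.578). Col9a3, a collagen on the surface of cartilage fibrils, was at 27.8 and 57.2 against 13 and 26 RPKM (1.08 ± 0.29, adjusted p = 0.626). These were the 2 of 9 tested cartilage-type genes past 2-fold in both tumors, beside 1.37% over all tested genes. The log2 fold changes of the 9 were all above 0 with a median of 0.56. Sox9, the factor that drives several of them, was at 81.7 and 116 RPKM in CD29hi CD61+ cells and 75.7 and 98.1 in ALDH+ cells. Postn, which encodes periostin, was the interstitial gene 2-fold higher in CD29hi CD61+ cells in both tumors, at 50.3 and 100 against 22 and 46.1 RPKM (1.13 ± 0.24, adjusted p = 0.435). Tnc, a matrix glycoprotein of the same list, was at 34.7 and 24.4 RPKM in CD29hi CD61+ cells and at 49.5 and 39 in ALDH+ cells (-0.58 ± 0.26, adjusted p = 0.822), and the direction of Fn1, the fibronectin gene, differed between the tumors, at 80.8 and 16.5 against 24.6 and 30.1 RPKM. Axl, a receptor kinase often found in mesenchymal cells, stood at 10.1 and 7.2 RPKM in CD29hi CD61+ cells. In ALDH+ cells it was at 2.72 RPKM in tumor 2, with 1 read in tumor 1. It was the only 1 of 13 tested genes of the epithelial to mesenchymal list past 2-fold in both tumors, beside 1.37% over all tested genes.

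Chemokine genes leaned to ALDH+ cells, mainly in tumor 1, with a median of -0.56 that was -0.86 in tumor 1 and -0.27 in tumor 2. Of 15 tested, 2 were at least 2-fold higher there in both tumors, beside 1.01% over all tested genes. At an unadjusted p under 0.05, 3 were higher there, beside 2.74%. The direction was shared by the tumors for 8 genes higher in ALDH+ cells and for 1 higher in CD29hi CD61+ cells. Ccl2, which attracts monocytes, was at 97.6 and 30.9 RPKM in ALDH+ cells and at 11.7 and 13.5 in CD29hi CD61+ cells, 8.32-fold and 2.29-fold apart (-2.05 ± 0.44, adjusted p = 0.444). Ccl11, which attracts eosinophils, was at 14.1 and 5.87 RPKM in ALDH+ cells, at 3.88 and 1.08 in CD29hi CD61+ cells and without reads in bulk cells (-1.68 ± 0.63, adjusted p = 0.822). Ccl7, another monocyte chemokine, was at 50.8 and 8.08 RPKM against 0 and 4.06 (-3.27 ± 1.05, adjusted p = 0.822). Rarres2, which encodes the chemoattractant chemerin, was at 11.2 and 7.49 RPKM in ALDH+ cells and at 0 and 0.327 in CD29hi CD61+ cells, at least 127-fold and 22.9-fold apart (-3.14 ± 0.69, adjusted p = 0.457). Nos2, the inducible nitric oxide synthase, was at 1.89 and 1.42 RPKM in ALDH+ cells and at 0 and 0.058 in CD29hi CD61+ cells (-1.36 ± 0.63, adjusted p = 0.822), and Cd14, the lipopolysaccharide co-receptor, at 523 and 401 against 210 and 264 RPKM (-0.96 ± 0.24, adjusted p = 0.565). Hp, which encodes the acute phase protein haptoglobin, had the opposite order, at 23.4 and 31.9 RPKM in CD29hi CD61+ cells and 10 and 13.8 in ALDH+ cells (1.15 ± 0.34, adjusted p = 0.74). Of 26 tested interferon response genes, 11 were higher in ALDH+ cells and 3 in CD29hi CD61+ cells in both tumors. At an unadjusted p under 0.05, 5 were higher in ALDH+ cells and 0 in CD29hi CD61+ cells, beside 2.74% and 3.04% over all tested genes. Past 2-fold in both tumors were 2 genes, both higher in ALDH+ cells, beside 1.01%. They were Bst2, the tetherin gene, at 47.9 and 27.4 RPKM in ALDH+ cells and 16.1 and 13.1 in CD29hi CD61+ cells (-1.26 ± 0.32, adjusted p = 0.592), and Isg15, a ubiquitin-like modifier, at 168 and 23.8 against 70.9 and 11.1 RPKM (-1.13 ± 0.25, adjusted p = 0.457), where the tumors differed more than the populations. Isg15 turned to 0.15 and 0.25 without the CD29hi CD61+ library of tumor 2 or the ALDH+ library of tumor 1, in fits without the block.

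The macrophage, T cell and endothelial markers given here were mostly low. S100a8, a neutrophil gene, was not. It was at 83.5 and 48.5 RPKM in CD29hi CD61+ cells, 104 and 38.6 in ALDH+ cells and 7.12 and 119 in bulk cells, and its source was not tested. Over 19 genes, macrophage and MHC class II genes summed to 35.4 and 88.3 RPKM in CD29hi CD61+ cells and 25.5 and 36.9 in ALDH+ cells. In bulk cells the sum was 10.4 and 37.5, and the part of these genes in other results was not tested. Apoe made up 15.5 and 18.4 RPKM of the sum in CD29hi CD61+ cells and 0 and 11.4 in ALDH+ cells. Ctss, the lysosomal protease of antigen-presenting cells, was at 1.94 and 6.87 RPKM in CD29hi CD61+ cells and at 0 and 0.495 in ALDH+ cells (1.97 ± 0.68, adjusted p = 0.822). H2-Ab1, an MHC class II chain, was at 3.89 and 4.15 RPKM in CD29hi CD61+ cells and at 0 and 0.924 in ALDH+ cells (1.86 ± 0.68, adjusted p = 0.822). These were the 2 of 9 tested genes of the list past 2-fold in both tumors, beside 1.37% over all tested genes. In tumor 1 Csf1r, Cd74, Itgam and Lyz2 went the other way, at 0, 1.21, 0 and 2.56 RPKM against 2.11, 5.44, 2.21 and 5.33 in ALDH+ cells. In tumor 2 all of these were higher in CD29hi CD61+ cells. The defining macrophage gene Emr1 was at 0 and 0.528 RPKM in CD29hi CD61+ cells and had no reads in ALDH+ cells, and Cd68 was at 3.56 and 12.4 against 7.28 and 12 RPKM. The T cell gene Cd3e was at 0 and 1.1 RPKM in CD29hi CD61+ cells and without reads in ALDH+ cells, and the endothelial gene Pecam1 was at 0 and 0.111 against 0 and 0.772 RPKM. Rgs5, a pericyte gene, was at 1.34 and 1.38 RPKM in CD29hi CD61+ cells and without reads in ALDH+ and bulk cells (1.24 ± 0.62, adjusted p = 0.822). It was the only 1 of 4 tested pericyte genes past 2-fold in both tumors, beside 1.37% over all tested genes. Both of its values were near the minimum. Pdgfrb and Cspg4 of that list went the other way in tumor 2, at 2.2 and 0.62 RPKM in ALDH+ cells against 0.651 and 0.155. Mcam was at 11.2 and 22.4 RPKM in CD29hi CD61+ cells and 15.1 and 18.2 in ALDH+ cells.

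Several other lists held few or no genes far apart. None of 32 cell cycle, 20 glycolysis, 19 lipid synthesis, 21 immediate early, 19 glutathione, 14 basement membrane, 16 integrin or 16 complement and coagulation genes was 2-fold apart in the same direction in both tumors, which at a share of 1.37% and 1.01% over all tested genes says little about lists of this size. Their medians were 0.43, -0.04, 0.33, 0.17, 0.36, 0.26, 0.20 and -0.18. The cell cycle median was 0.91 in tumor 1 and -0.14 in tumor 2, beside 0.17 and 0.00 over all tested genes, so the direction was not shared by the tumors. In the immediate early list, 5 of the 21 genes were higher in CD29hi CD61+ cells and 1 in ALDH+ cells at an unadjusted p under 0.05, beside 3.04% and 2.74% over all tested genes. The 5 were Fosb, Jun, Egr1, Dusp1 and Gadd45a, genes of early transcription factors, a kinase phosphatase and a stress protein, and the 1 was the small heat shock gene Hspb1. Egr1 was at 112 and 117 RPKM in CD29hi CD61+ cells and at 50.1 and 75.8 in ALDH+ cells (0.88 ± 0.23, adjusted p = 0.62), and Dusp1 at 106 and 124 against 21.3 and 100 RPKM (1.28 ± 0.42, adjusted p = 0.822). The lymphocyte and endothelial lists each had 1 tested gene.

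**Figure D4:**
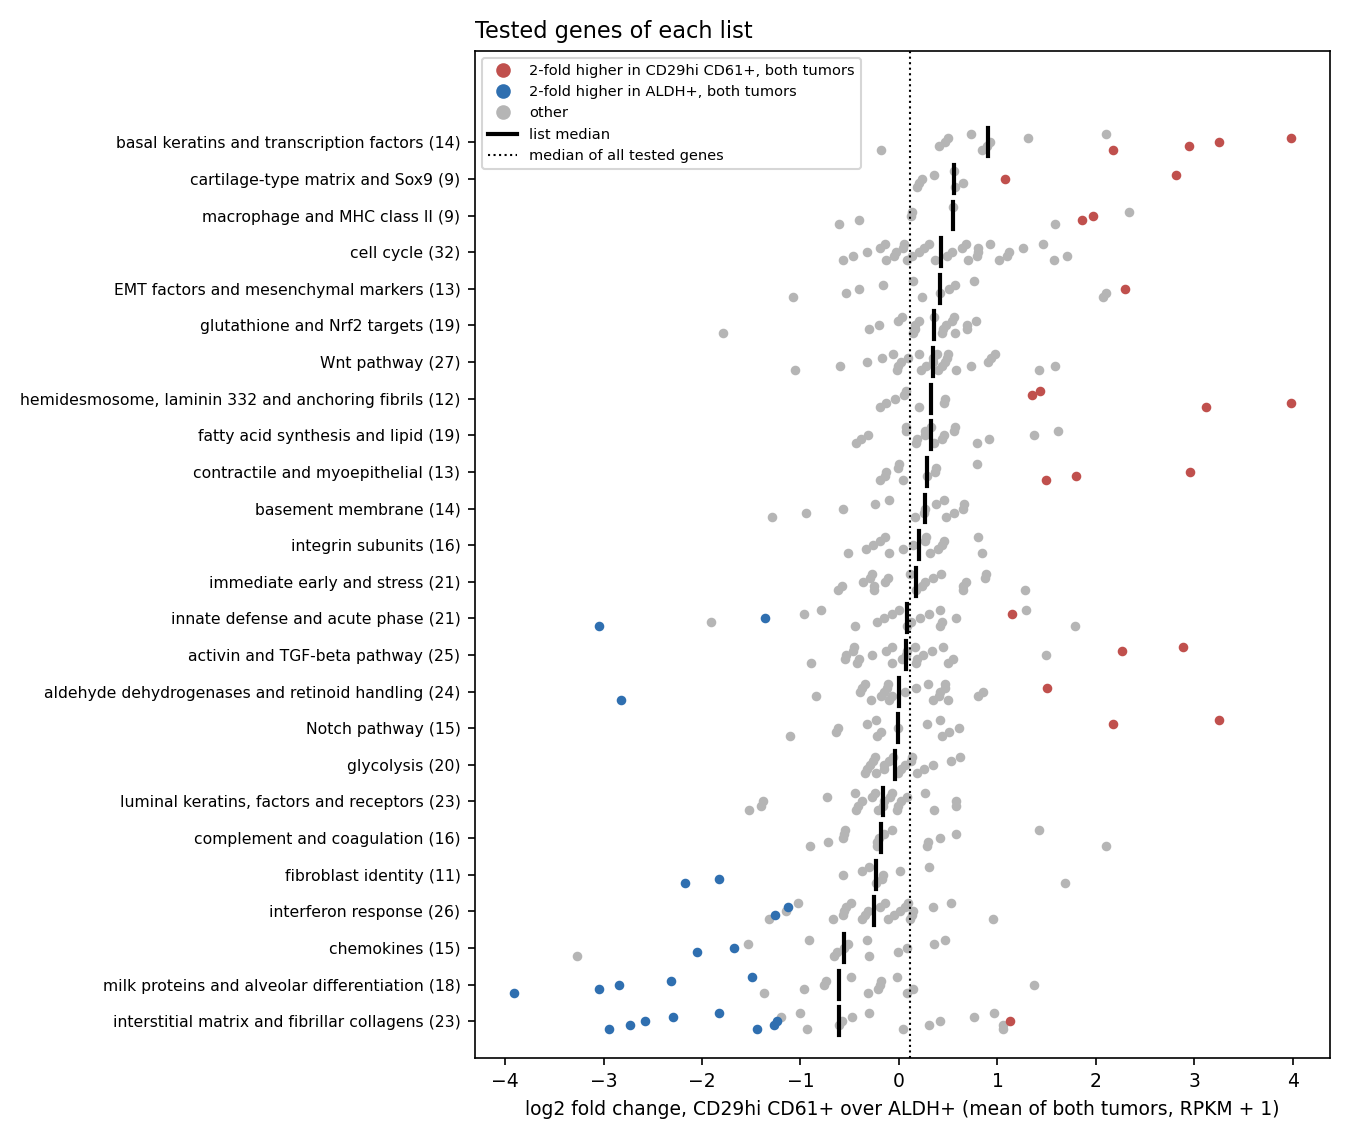
Log2 fold change of every tested gene in the 25 lists with at least 9 tested genes (number tested in parentheses), with a black bar at the list median and a dotted line at the median of all tested genes, 0.11. Red points are 2-fold higher in CD29hi CD61+ cells in both tumors and gather in the basal, hemidesmosome and contractile lists, and blue points are 2-fold higher in ALDH+ cells and gather in the milk protein and interstitial matrix lists.

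The remaining genes with the largest difference shared by both tumors came from no list. H19, an imprinted long noncoding RNA of growing tissue, was at 7.45 and 34 RPKM in CD29hi CD61+ cells and at 0 and 3.71 in ALDH+ cells, at least 143-fold and 9.15-fold apart (2.99 ± 0.61, adjusted p = 0.383). Scgb2b2, a secretoglobin with close relatives in the genome among which reads may be split, was at 13.7 and 3.89 RPKM in CD29hi CD61+ cells, with 1 read and none in ALDH+ cells. Spink4, a secreted protease inhibitor, was at 3.5 and 2.71 RPKM in CD29hi CD61+ cells, Toporsos, a transcript opposite to Topors, at 4.81 and 4.56 RPKM, and neither had reads in ALDH+ cells. Pet117, an assembly factor of cytochrome oxidase, was at 14.8 and 19.7 RPKM in CD29hi CD61+ cells with 1 read and 4.89 RPKM in ALDH+ cells, and Mettl10, a lysine methyltransferase, was at 14.6 and 4.3 against 0 and 0.536 RPKM. On the ALDH+ side, Magohb, a subunit of the exon junction complex, was at 32.6 and 7.27 RPKM in ALDH+ cells with 1 read and 0.786 RPKM in CD29hi CD61+ cells, and Tbc1d22bos, a transcript opposite to Tbc1d22b, was at 6.3 and 6.89 against 0 and 0.755 RPKM. Whether reads were assigned by strand is not given in the sources used here, so the opposite-strand transcripts cannot be told apart from their partner genes. The adjusted p of these 7 genes after H19 was 0.523 to 0.816.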

How the data were processed

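RNA of the 3 populations sorted from 2 tumors was enriched for poly(A), made into libraries with the PrepX mRNA kit and sequenced. The authors deposited RPKM for 14897 genes in 6 libraries, scaled by gene length and by the reads counted in genes. They also deposited group means of P0 and P1 as a normalized signal, which served only to recover gene lengths. Whole reads were recovered from the RPKM for 14896 genes within 0.01 reads. Columns that compare P1 with P0 (fold change, log2 value, p and adjusted p) came from the authors and were not used. The aligner, genome build and annotation are not given in the sources used here. Since 20 symbols had turned into dates, they were restored by gene ID from RefSeq, and 8 genes without a symbol were left out.

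P1 and P2 were compared on log2(RPKM + 1) with limma 3.58.1 in R 4.3.3 (intensity trend, tumor as replicate block, 2-sided, Benjamini-Hochberg, threshold 0.05) for genes of at least 1 RPKM in 2 of the 4 libraries. The procedure was tested on simulated data. The tumor pairs the libraries by design, and deviations of P1 and P2 from their group means correlated at 0.262 across 12029 genes. Where a library had no reads, folds were taken against 3 reads. A pair of folds gives tumor 1 and tumor 2.

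Genes were named if they passed the adjusted threshold, were among the 12 in each direction with the largest difference shared by both tumors (small RNA, Gm and Rik symbols left out), were cell type markers, gate genes or aldehyde dehydrogenases, or were 2-fold apart in both tumors within a gene list, up to 4 per list. Genes outside this rule (among them Muc1, Muc4, Muc15, Krt19, Itga6, Dll1, Tnc, Slpi, Egr1, Ccl7, Cd14 and the smaller kallikreins) were chosen after their values were seen. The comparison, its gene lists and its tests were chosen with earlier results of these data known. Lists are described by counts and medians with no test of their own. Alternatives were voom on the recovered reads, other scaling, pseudocount, filters and blocks, and each library left out. Promoters are from RefSeq (GRCm38.p6), which held 4 of the 5 genes looked up. Figures used Python 3.11.15, numpy 2.4.6, pandas 2.3.3 and matplotlib 3.10.9.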

Additional observations from a re-analysis of the deposited data

How the results depend on the processing

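The calls depend on pairing by tumor. Without the replicate block 0 genes were called in either direction, and 138 and 177 genes were higher in CD29hi CD61+ and ALDH+ cells at an unadjusted p under 0.05. With all 6 libraries in the fit, 0 and 0 were called both with and without the replicate block, with 180 and 133 at an unadjusted p under 0.05 without it. With voom on the recovered reads and the replicate block, 18 and 86 genes were called (761 and 813 unadjusted), among them Krt5, Csn2, Csn1s1, Klk10, Aldh1a3 and Ltf. Median-of-ratios scaling gave 4 and 37 (938 higher in ALDH+ cells unadjusted), and voom without the replicate block gave 0 genes higher in CD29hi CD61+ cells. A pseudocount of 0.1 RPKM called 0 and 0 genes, with 194 higher in CD29hi CD61+ cells unadjusted, and moved the genes 2-fold apart in both tumors to 287 and 206. Setting library medians equal called 0 and 0, with 227 higher in CD29hi CD61+ cells unadjusted. No filter gave 5 genes called higher in ALDH+ cells. At least 1 RPKM in all 4 libraries gave 37 and 87 calls, and 19 and 67 genes 2-fold apart.

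Leaving out each library in turn, with no block and the lone sample assumed to vary like the others, gave 0 to 371 and 0 to 74 calls, and 28 to 1747 and 32 to 714 genes unadjusted. The highest counts came without the ALDH+ library of tumor 2. Of 88 genes given with a fold change, 3 turned direction with a library left out: Trp63 (-0.36 to 2.04), Isg15 (-2.52 to 0.25) and Itgb3 (-0.21 to 0.48, and -0.03 with median-of-ratios scaling). No other named gene did so, and none of the 3 had passed the threshold.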

Other observations

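Families that no list covered were counted after their values were seen. Major urinary protein genes, whose products carry pheromones in mouse urine, had reads mostly in CD29hi CD61+ cells of tumor 1. All 15 genes in the table summed to 158 and 11.5 RPKM in CD29hi CD61+ cells, 0.0481 and 2.29 in ALDH+ cells and 0 and 3.53 in bulk cells. Mup15 was at 21.1 and 1.09 RPKM in CD29hi CD61+ cells and without reads in ALDH+ and bulk cells (log2 fold change 2.77 ± 0.91, adjusted p = 0.822), and it entered the test only through the former. These genes are near copies of each other, so their reads may be split or shared.

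Imprinted genes were also uneven. Cdkn1c, a cell cycle inhibitor and neighbour of H19 in the imprinted cluster of chromosome 7, was at 8.86 and 10.6 RPKM in CD29hi CD61+ cells and at 0.804 and 4.22 in ALDH+ cells (1.80 ± 0.67, adjusted p = 0.822). Slc22a18, a transporter of the same cluster, was at 3.12 and 2.82 against 0 and 0.452 RPKM, and Mest, on another chromosome, at 3.3 and 6.43 against 0 and 2.39 RPKM. With H19 these were 4 of 27 tested imprinted genes higher in CD29hi CD61+ cells by 2-fold in both tumors. Dcn was the 1 higher in ALDH+ cells, and the shares over all tested genes were 1.37% and 1.01%. The median of the 27 was -0.07, and Peg3, a paternally expressed zinc finger gene, was at 10.9 and 7.76 RPKM in CD29hi CD61+ cells and 32.3 and 10.7 in ALDH+ cells. Further genes of the cluster of H19 went in both directions. Their log2 fold changes were 0.83 for Phlda2, 0.51 for Nap1l4, 0.01 for Kcnq1ot1, -0.22 for Cd81 and -0.82 for Tssc4.

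Replication-type histone genes, whose mRNAs mostly lack a poly(A) tail, were uneven. Of 55 tested, 7 were 2-fold higher in ALDH+ cells in both tumors and none in CD29hi CD61+ cells, beside 1.01% and 1.37% over all tested genes. Their median was -0.02 in tumor 1 and -0.43 in tumor 2, and 15 had no reads in ALDH+ cells of tumor 1. There Hist1h2bg was at 15.6 RPKM in CD29hi CD61+ cells and 0.0906 in ALDH+ cells. Some members, such as Hist1h2bq and Hist1h2br, had identical values, so their reads may be shared. Hist1h2an was at 38.9 and 26.9 RPKM in ALDH+ cells and at 6.89 and 11.4 in CD29hi CD61+ cells (-1.75 ± 0.41, adjusted p = 0.55). Among the genes 2-fold higher in both tumors, 25 of the 165 in CD29hi CD61+ cells and 4 of the 122 in ALDH+ cells were microRNA or small nucleolar RNA genes, of 158 tested. Poly(A) libraries do not measure the mature forms of these RNAs, and 39 of the 53 tested small nucleolar RNA genes had no reads in ALDH+ cells of tumor 1.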
